A study of Mus musculus with 7 samples.

Results

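Single coding exons whose RNA coverage moved apart from the rest of their gene were examined between erythroid progenitors and erythroblasts of the mouse fetal liver. For each gene the transcript with the most listed exons was taken, and genes with at least 5 listed exons and a summed coverage of at least 20 in each stage were kept. The log2 ratio of erythroblasts to progenitors was formed for every exon, and the median over the exons of its gene was subtracted. An exon was called deviating where the result was at least 2 in size, that is 4-fold from the median exon of its gene. By this rule 208 exons of 158 genes deviated, among 12587 exons of 1216 eligible genes and 30257 listed exon rows of 5241 genes in all. The deviating exons were 1.65% of all exons of eligible genes. Of them 108 (0.858% of exons) were higher in erythroblasts than their gene and 100 (0.794%) were lower. The same coverage values that chose these exons are described below, so their sizes are a description and carry no test.

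RNA came from sorted fetal liver cells of E13.5 mouse embryos whose Klf1 gene carries a hemagglutinin tag, in every group alike. Klf1 encodes EKLF, a transcription factor of red cells. Progenitors were sorted as Ter119-CD71- and Ter119-CD71+ cells, and erythroblasts as Ter119+CD71+ cells. Ter119 marks maturing red cells, and CD71 is the receptor for transferrin. At least 3 sorts were made of each population. The labels give 1 progenitor RNA library and 2 erythroblast RNA libraries, but the deposited table has 1 column per stage, which leaves every comparison below without replicates. In bulk samples fewer cells of a type and less RNA per cell cannot be told apart. ChIP-seq peak lists of EKLF, 1 per stage, were used only for the nearness of peaks to exons.

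Coding exons of a gene can differ in abundance because transcripts start at different promoters, skip or include exons, or end at different sites. Red cell precursors are known for stage-dependent splicing, the best-known case being an exon of Epb41 that encodes part of the spectrin and actin binding domain of protein 4.1. Transcripts that keep introns are also known in late erythroblasts, among them those of splicing factor genes such as Sf3b1 and Ddx39b. The table gives coverage of coding exons alone, so introns, untranslated exons and splice junctions were not measured here.

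Only exons at or above 0.8 in both columns were listed, so an exon silent in either stage was not analysed here. Values are coverage sums that were not divided by exon length, and therefore levels are compared for the same exon between stages and not between exons. If 1 step of the table is 1 base, its lowest values stand for 28.8 reads in progenitors and 33.7 in erythroblasts. On that reading the counting error of the log2 ratio of a deviating exon had a median of 0.21 and a highest value of 0.30. Over all eligible exons the deviation had an SD of 0.75, with 5% of exons below -1.21 and 5% above 1.28. The SD of exon log2 ratios within a gene had a median of 0.70. Of 34 marker genes of macrophages, hepatocytes, granulocytes and mast cells, megakaryocytes, B cells and stroma only Gp1ba was listed, and it was not eligible. All 9 listed exons of Tfrc, which encodes CD71, were higher in erythroblasts.

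The minimum of the table limits what can be called, since a 4-fold difference must fit above 0.8. Among the 8320 exons whose values left that room upward 1.3% deviated higher, and among the 8333 with room downward 1.2% deviated lower. Of the 158 genes (13% of eligible genes) 120 had 1 deviating exon, 26 had 2 and 12 had 3. Just inside the limit lay exons of Rangap1 (2.001), Cdc45 (2.01) and Cit (2.01) on the upper side and of Lbr (-2.01), Eif5b (-2.01) and Pola2 (-2.02) on the lower side. Just outside lay exons of Ckap5 (1.997), Dele1 (1.996) and Nop2 (1.996), and of Pom121 (-1.998), Uba2 (-1.998) and Acss2 (-1.993).

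The rule picks exons by a ratio, so it favours low progenitor values in higher exons and low erythroblast values in lower ones. Over all exons of eligible genes the median was 4.78 in progenitors and 5.17 in erythroblasts. The exons that were higher in erythroblasts had low coverage in progenitors. Their progenitor values ran from 0.807 to 14.6 with a median of 1.28, and 76 of 108 were under 2. Erythroblast values of the same exons ran from 1.98 to 49.3 with a median of 7.35. The exons that were lower had progenitor values from 1.70 to 114 with a median of 8.11, and erythroblast values from 0.820 to 86.5 with a median of 2.002. In 50 of these 100 exons the erythroblast value was under 2. All 108 higher exons were also higher in erythroblasts in themselves, whereas 3 of the 100 lower exons were higher in themselves in genes whose median exon was higher still.

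**Figure D1:**
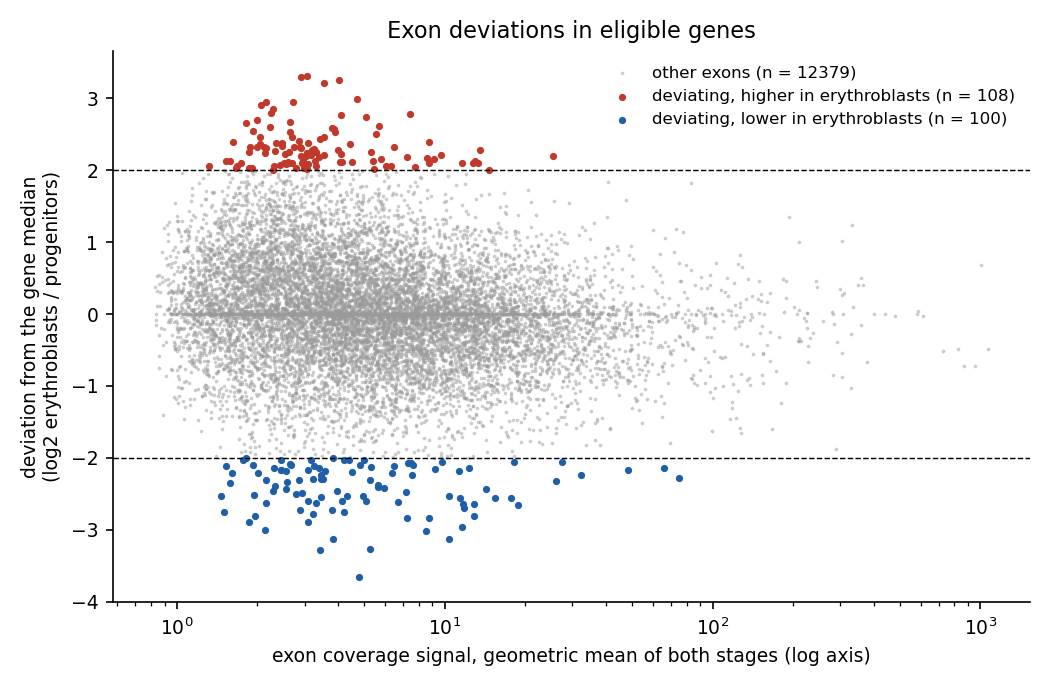
Deviation of each exon from its gene's median log2 ratio (vertical axis) against its coverage signal, taken as the geometric mean of both stages (horizontal log axis), for 12587 exons. Red points (n = 108) and blue points (n = 100) lie at or beyond 2 (dashed lines), most of them at low coverage, and the spread of the grey points narrows toward high coverage.

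Coverage within the gene was ranked on the product of the same progenitor and erythroblast values that form the deviation. The shares below are thus not independent of the rule, which favours low progenitor values in higher exons. Exons in the bottom tercile of coverage of their gene deviated higher in 1.70% of cases (64 of 3764, Wilson 95% interval 1.33 to 2.17%), and those in the top tercile in 0.197% (9 of 4580, 0.103 to 0.373%). Exons that deviated lower had nearly the same share in the bottom (0.824%) and top tercile (0.764%). The median deviation of all exons was 0.18 in the bottom tercile and -0.13 in the top tercile. Coverage depends on exon length and abundance together, and their part in this was not tested. These and all later intervals cover counting error over exons only, since exons of 1 gene are not replicates.

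The largest deviation downward was in Smc1a and the largest upward in Tpr. Among the 12 largest on the lower side, 3 were the last 3 listed exons of Smc1a, which encodes a core subunit of the cohesin ring. Its exon 19 of 20 (chromosome X, start 148495836 in build mm9, as are all exon positions) had 12.8 in progenitors and 1.79 in erythroblasts, while its median exon was 1.77-fold higher in erythroblasts. That exon had the lowest deviation found, -3.66. An exon of Nipbl, the loader of cohesin, went from 4.51 to 1.01, a deviation of -3.01 at the first listed exon. Exon 10 of 28 of Cnot1, the scaffold of the main deadenylase complex, went from 27.6 to 2.64 (-3.01). In Pnn, a protein of nuclear speckles, exon 5 of 9 went from 8.11 to 1.17 (-2.89).

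The median exons of Cnot1 and Pnn had folds of 0.772 and 1.07, and the summed coverage of Cnot1 was 209 in progenitors and 104 in erythroblasts. Exon 8 of 12 of Ivns1abp, a kelch-domain protein, went from 17.7 to 1.56 (-3.27). In Snx1, a sorting nexin of endosomes, exon 3 of 9 went from 10.9 to 1.34 (-3.13). Exons 13 and 14 of the 26 listed of 2610507B11Rik had deviations of -3.28 and -2.84.

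On the upper side the largest deviation was in Tpr, a large protein of the nuclear pore basket. Its exon 15 of 23 (chromosome 1, start 152287197) went from 1.18 in progenitors to 7.96 in erythroblasts, while its median exon was lower in erythroblasts (log2 -0.55), a deviation of 3.31. Exons 2 and 6 of Tpr deviated as well, by 2.09 and 2.28. Exon 10 of 20 of Ppp6r1, a regulatory subunit of protein phosphatase 6, went from 0.923 to 9.14 (3.30). Exon 7 of 13 of Rangap1, which activates the GTPase of the transport factor Ran, went from 1.17 to 13.8 (3.25).

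The next largest was in Dhx15. In this helicase that takes spliceosomes apart, exon 3 of 8 went from 1.38 to 9.13 (3.21). Exon 10 of 13 of Raver1, a partner of the splicing repressor PTB, went from 2.07 to 10.7 (2.99). The last listed exon of Eif4g2, a translation initiation factor, went from 0.877 to 8.37 (2.95). In Mfsd2b, the red cell exporter of sphingosine-1-phosphate, exon 9 of 11 went from 1.03 to 4.46 (2.94), although its median exon was lower in erythroblasts (log2 -0.83). The remaining exons of the 12 largest were in Cdc45 (2.90 and 2.80), Ubap2l (2.85), Dgkz (2.79) and Lig1 (2.77). Their progenitor values lay between 0.884 and 3.35.

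**Figure D2:**
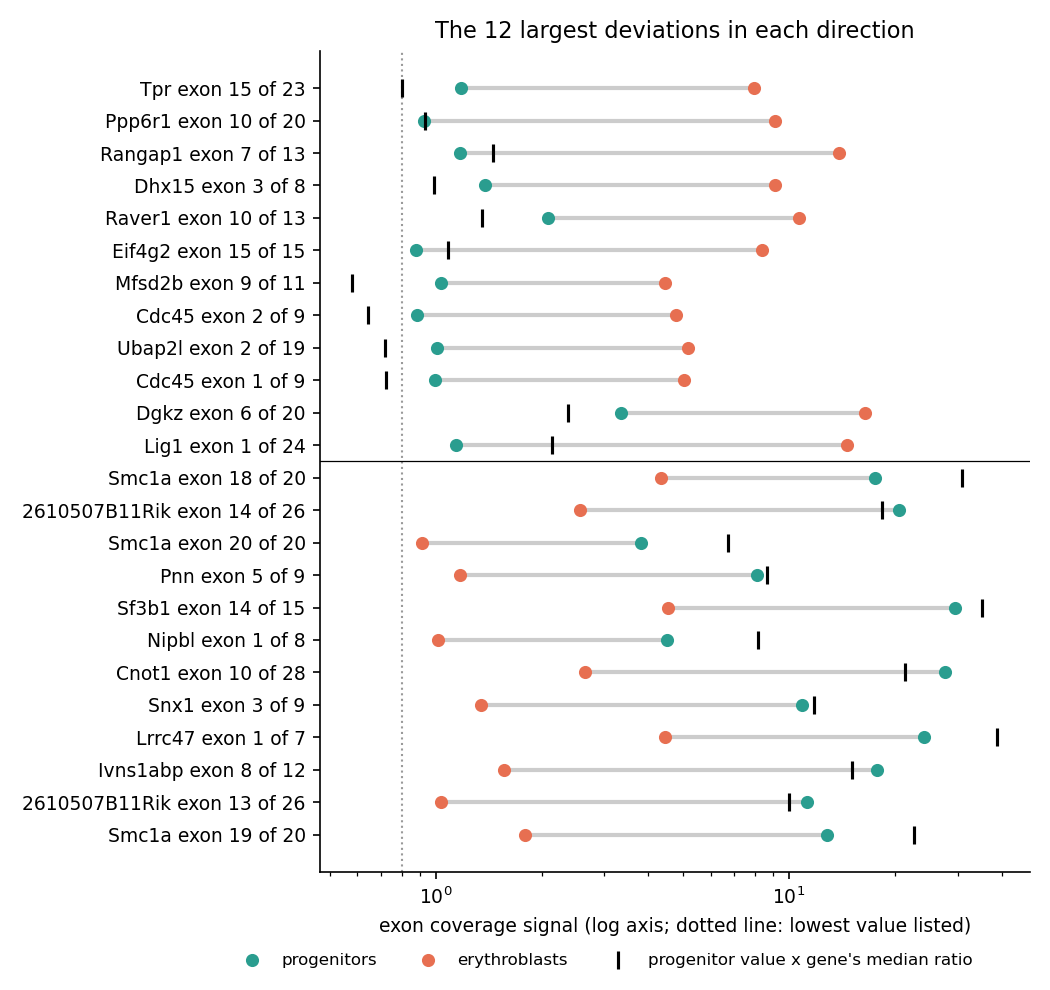
Coverage signal of the 12 exons with the largest deviation upward (upper block) and downward (lower block), in progenitors (green) and erythroblasts (orange), on a log axis. The black tick is the erythroblast value the exon would have at its gene's median ratio, and the dotted line is the lowest value listed. Most exons of the upper block start close to that line, as 10 of the 12 have progenitor values under 2.

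How far a deviating exon stood from its own gene varied widely. The size of the deviation divided by the SD of log2 ratios over the gene's other exons had a median of 2.60, and 170 of 208 exons were past 2 of these SDs. The rule asks for a deviation of at least 2, and the SD within a gene had a median of 0.70. Ratios of this size thus follow largely from the choice of exons. The exons farthest out by this ratio were chosen after their values were seen. In genes with 5 or 6 listed exons the SD rests on few values. Exon 2 of 6 of Nop58, a core protein of box C/D small nucleolar particles, went from 8.80 to 2.01, a deviation of -2.76 that was 10.95 times the SD of 0.25 among the other exons. In Vcp, a hexameric ATPase that extracts ubiquitinated proteins, exon 3 of 5 went from 24.1 to 5.71 (-2.63, 9.96 times). The last coding exon of Hjurp, the chaperone of the centromeric histone, had 64.7 and 86.5, while its other 4 exons lay between 0.81 and 2.01 in progenitors and between 7.0 and 16.4 in erythroblasts. Its deviation of -2.29 was 9.88 times their SD. The last exon was itself 1.34-fold higher, against 6.52-fold for the median exon of the gene. However, it held most of the summed coverage of the gene, which was 70.3 in progenitors and 128 in erythroblasts. The median thus describes the weakly covered exons and not the summed change of Hjurp. Of the upward exons the farthest was exon 7 of 8 of Kmt2b, a histone methyltransferase, from 1.09 to 5.97 (2.09, 7.84 times).

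The share of end exons among deviating exons differed between settings. First or last listed exons were 34 of 208 deviating exons (16.3%, 11.9 to 22.0%), against 2432 of 12587 exons of eligible genes (19.3%, 18.6 to 20.02%). The share among deviating exons was 10.6% with a straight line along each gene removed. That line was fitted to all exons of the gene, so an outlying end exon pulls it toward itself. A lower share follows in part from this. With only exons of at least 2 in both columns the share of end exons was 29.6% of 71 deviating exons, and with at least 5 it was 50% of 12. Those floors left 7683 exons of 863 genes and 3001 exons of 375 genes. They can also change which exon of a gene is first or last listed. The 19.3% does not apply to these sets, and no matched share of end exons was computed. First listed exons deviated in 1.15% of genes (0.687 to 1.92%), last listed exons in 1.64% (1.07 to 2.53%) and internal exons in 1.71% (1.48 to 1.98%). Counts by direction were small. Of the first listed exons 10 were higher (0.447 to 1.51%) and 4 lower (0.128 to 0.843%). Of the last listed exons 8 were higher (0.334 to 1.29%) and 12 lower (0.565 to 1.72%). At each end the intervals of both directions overlapped.

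The counts were also taken along the whole gene, cut into 5 bins of about equal exon number. In the bin nearest the 5' end 26 exons deviated higher and 10 lower, and in the bin nearest the 3' end 13 deviated higher and 29 lower. The other bins, from 5' to 3', had 22 and 16, 23 and 23, and 24 and 22. Over all exons the median deviation in these end bins was 0.016 and -0.0013. A straight line through the log2 ratios of a gene went up toward the 3' end in 544 of 1216 genes (44.7%) and the median change from first to last exon was -0.14. This change was -0.15 on the forward strand and -0.14 on the reverse strand. With each gene's straight line removed 142 exons deviated, of which 105 were among the 208.

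**Figure D3:**
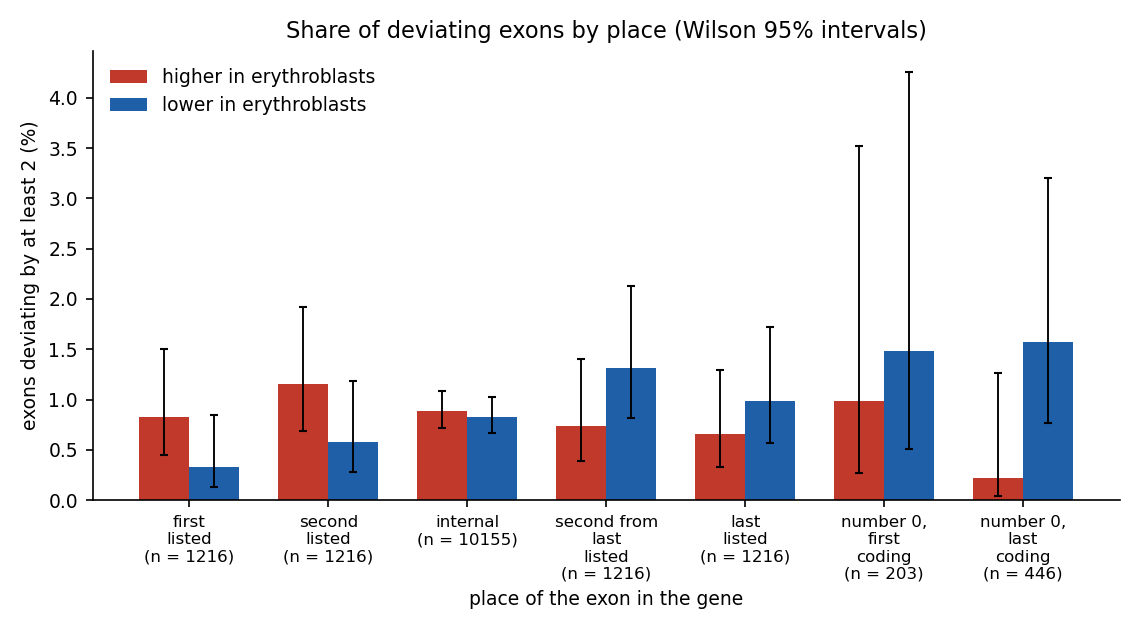
Share of exons at each place in the gene that deviated by at least 2 (vertical axis, percent), higher (red) or lower (blue) in erythroblasts, with Wilson 95% intervals as bars and the number of exons under each place. Internal exons lie at 0.886% and 0.827%, and the intervals at the ends of genes overlap those of internal exons.

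Exons are numbered in genomic order, so exon 0 is the first coding exon of a forward-strand gene and the last coding exon of a reverse-strand gene. Of 203 listed first coding exons 5 deviated (2.46%, 1.06 to 5.64%), 3 lower and 2 higher. Of 446 listed last coding exons 8 deviated (1.79%, 0.912 to 3.50%), 7 lower and 1 higher. Both intervals hold the 1.65% of all exons. The lower first coding exons were those of Lrrc47, Sfpq and Lmnb1, and the higher ones those of Gps2 and Nmt1. Since a promoter lies close to such exons, the 250 bases before the RefSeq start of 4 of these genes are shown, from build GRCm38.p6, at chr4:154011553-154011802 (Lrrc47), chr4:127021051-127021300 (Sfpq), chr11:69913770-69914019 (Gps2) and chr11:103028293-103028542 (Nmt1), all on the forward strand. Capitals mark CCNCNCCC, the CACCC class of site that EKLF binds, and GATAA, the core that GATA factors bind, on either strand, which do not overlap here.
Lrrc47: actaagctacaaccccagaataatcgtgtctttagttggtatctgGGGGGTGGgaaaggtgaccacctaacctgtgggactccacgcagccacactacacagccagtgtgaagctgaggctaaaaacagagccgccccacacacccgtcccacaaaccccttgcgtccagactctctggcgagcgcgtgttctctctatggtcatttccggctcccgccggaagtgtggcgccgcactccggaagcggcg
Sfpq: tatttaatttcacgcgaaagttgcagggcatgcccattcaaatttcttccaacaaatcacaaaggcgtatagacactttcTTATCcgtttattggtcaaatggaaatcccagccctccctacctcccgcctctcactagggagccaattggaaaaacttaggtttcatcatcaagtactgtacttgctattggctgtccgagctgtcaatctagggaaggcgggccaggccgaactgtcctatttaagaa
Gps2: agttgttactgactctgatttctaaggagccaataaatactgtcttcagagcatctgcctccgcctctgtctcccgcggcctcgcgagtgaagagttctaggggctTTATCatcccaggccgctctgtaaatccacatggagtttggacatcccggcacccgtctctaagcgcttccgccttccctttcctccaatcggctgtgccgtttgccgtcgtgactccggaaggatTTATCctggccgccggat
Nmt1: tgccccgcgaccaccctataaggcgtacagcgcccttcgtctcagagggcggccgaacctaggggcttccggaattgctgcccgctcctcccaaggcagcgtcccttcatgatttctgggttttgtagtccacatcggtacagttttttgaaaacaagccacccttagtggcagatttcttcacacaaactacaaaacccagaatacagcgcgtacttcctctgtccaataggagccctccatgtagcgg

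Lrrc47 held 1 CCNCNCCC match, on the reverse strand. Sfpq held 1 GATAA match and Gps2 held 2, all on the reverse strand, and Nmt1 held neither motif. Of all 32851 RefSeq promoters 45.9% held CCNCNCCC and 22.6% held GATAA in the same 250 bases. Among 182 promoters of genes with a listed first coding exon these shares were 67.6% and 19.2%. A match describes letters only, and the exon and peak positions, given in mm9, were not placed on these windows.

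The first coding exon of Lrrc47, a protein with leucine-rich repeats, went from 24.2 to 4.44 (deviation -3.13). The next exons had deviations of -1.05 and -0.71, and the 4 after them lay between 0 and 1.12, so the ratio climbed along the gene. Sfpq, a splicing and paraspeckle protein, had 88.5 and 26.5 at its first coding exon (-2.17), while its other exons lay between -0.42 and 1.07. The first coding exon of Lmnb1, which encodes lamin B1 of the nuclear lamina, went from 20.5 to 2.82 (-2.10). In Gps2, a subunit of the NCoR corepressor complex, the first 2 exons went from 2.12 to 7.79 and from 2.80 to 10.4 (2.11 and 2.13), and the last 5 lay between -0.65 and 0. Nmt1, which attaches myristate to proteins, went from 3.13 to 19.2 at its first coding exon (2.05), and its next 2 exons had 1.26 and 1.20.

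The last coding exons that deviated lower were led by Idh3g, a subunit of mitochondrial isocitrate dehydrogenase, from 9.23 to 1.56 (-2.73). Fryl had 4.32 and 2.78 at its last of 27 listed exons (-2.55) while its median exon was 3.77-fold higher in erythroblasts. Nars, the asparagine tRNA synthetase (-2.41), Hjurp (-2.29), the RNA ligase gene Rtcb (-2.20), the initiation factor gene Eif3c (-2.07) and the spindle checkpoint gene Mad1l1 (-2.03) followed. The higher one was in Srsf11, a serine and arginine rich splicing factor, from 3.11 to 26.7 (2.16).

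With each gene's straight line removed none of the 5 first coding exons was past 2, with -1.23 in Lrrc47, -1.30 in Sfpq, -1.41 in Lmnb1, 0.74 in Gps2 and 0.47 in Nmt1. Of the last coding exons only those of Idh3g (-2.08) and Fryl (-2.02) stayed past 2. The line of a gene was fitted with these end exons included, and an outlying end exon pulls it toward itself. Smaller deviations thus follow in part from the fit, and no conclusion on end exons is drawn from them. The same holds for exons near gene ends given below with the line removed.

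Some deviating exons lay next to each other. Of the 208 deviating exons 48 (23.1%, 17.9 to 29.3%) lay in 22 runs of 2 or 3 neighbouring listed exons that deviated the same way. Of all exons 1.65% deviated, which is another measure, and no expected share in runs was computed. The share in runs was 8.45% with only exons of at least 2 in both columns, 0% with at least 5, and 11.97% with the line along the gene removed. Of the runs 14 were lower and 8 higher, 18 had 2 exons and 4 had 3, and 19 had consecutive exon numbers. The starts of the exons of a run lay between 157 and 8604 bp apart, with a median span of 592 bp. Only 2 runs reached the first listed exon, in Gps2 and Cdc45, and 2 reached the last, in Smc1a and Cops6. In 14 of the 22 the summed coverage of the run and that of the rest of the gene went opposite ways between the stages.

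Outside the runs 160 deviating exons remained, of which 82 had a neighbour beyond 1 in the same direction and 69 had every neighbour within 1 of the gene. Only 2 had a neighbour that deviated the other way. Deviations of all neighbouring exons had a Pearson correlation of 0.28 over 11371 pairs, as a description across exons that share a gene, its median and the libraries. Of these pairs 50.4% had deviations of the same sign, where a pair with an exon at its gene's median counted as not the same. The correlation was 0.33 for consecutive exon numbers (9166 pairs) and 0.08 where unlisted exons lay between (2205 pairs). By distance it was 0.38 for starts under 500 bp apart, 0.31 from 500 to 2000 bp, 0.18 from 2 to 10 kb and 0.02 beyond. For exons 2 places apart it was -0.02. Sequenced fragments can span neighbouring exons, and their part in these values was not tested.

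The strongest run was at the 3' end of Smc1a. Its listed exons 18, 19 and 20 had 17.5, 12.8 and 3.81 in progenitors and 4.34, 1.79 and 0.911 in erythroblasts. Together they went from 34.1 to 7.04, a log2 change of -2.28, while the other 17 exons went from 78.9 to 138, a change of 0.81. With the line along the gene removed exon 19 stayed past 2 (-2.16), and exons 18 and 20 had -1.48 and -1.25. In Tcp1, a subunit of the CCT chaperonin, exons 10 and 11 went from 27.95 to 5.96 and from 24.7 to 5.69 (-2.81 and -2.70), and the 4 exons before them were above the gene. Of those, exon 7 of 12 was itself called, from 1.21 to 9.73 (2.43). Exons 10 and 11 stayed past 2 with the line removed (-2.38 and -2.14).

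A run in the middle of a gene was seen in Cat. Cat, which encodes the catalase that removes hydrogen peroxide, had 2.03 and 2.25 in progenitors and 1.06 and 1.002 in erythroblasts at exons 5 and 6 of 13, while the rest of the gene went from 47.99 to 183. Top2a, the topoisomerase of dividing cells, had 34.1 and 24.9 over exons 14 and 15 of 16 while the rest went from 59.2 to 264. Pola2, a subunit of DNA polymerase alpha, had 15.3 and 3.44 over exons 11 and 12 of 15, against 51.05 and 49.3 in the rest. Cdc45, part of the replicative helicase, showed the reverse order. Its first 3 listed exons went from 0.996, 0.884 and 1.34 to 5.03, 4.80 and 3.92, while the rest of the gene went from 59.3 to 36.9. None of these 3 stayed past 2 with the line removed (0.12, 0.70 and 0.27).

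The longest upward run beside Cdc45 was in Pabpc1, the main cytoplasmic poly(A)-binding protein. Exons 3, 4 and 5 of 14 went from 5.87 to 30.1, from 3.11 to 16.9 and from 1.81 to 14.3, with deviations of 2.11, 2.19 and 2.73. The rest of the gene had 1725 and 1747, so these exons were a small part of its coverage in both stages. Pabpc1 has near-identical copies elsewhere in the genome, and no source used here says how reads were shared among them, so these values are uncertain. Other upward runs were in Rangap1 (13.8 and 32.6 in erythroblasts from 1.17 and 6.57), the ubiquitin ligase gene Huwe1, the cytokinesis kinase gene Cit, Caprin1, Tbrg1 and Gps2. The remaining downward runs were in 2610507B11Rik, Ivns1abp, Snx1, the proton pump gene Atp6v1b2, the signalosome gene Cops6, Ubxn4, the splicing regulator Rbm5, the lamin B receptor gene Lbr and Eif5b. In Ubxn4 the 3 exons of the run went from 17.0 to 10.6 in sum while the rest of the gene went from 12.6 to 43.6.

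**Figure D4:**
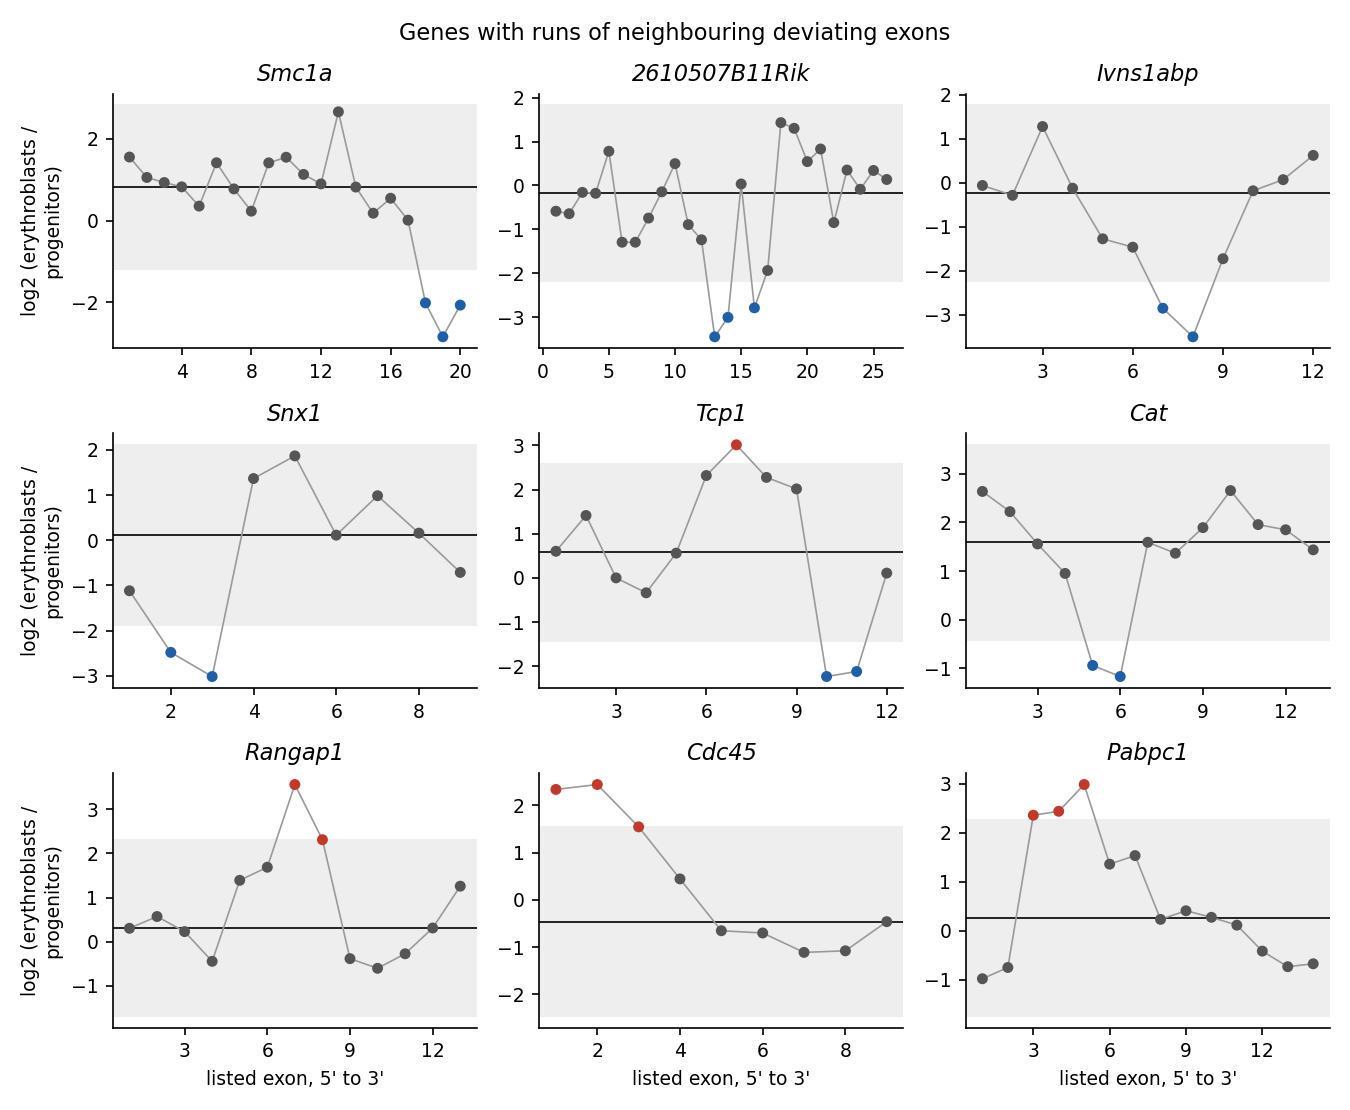
Log2 ratio of erythroblasts to progenitors (vertical axis) for each listed exon from 5' to 3' (horizontal axis) in 9 genes with runs. The black line is the gene's median, the grey band reaches 2 to either side, and red and blue points are exons called higher and lower. The blue points of Smc1a are its last 3 exons and the red points of Cdc45 its first 3.

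In 10 genes exons deviated in both directions, and 9 of these had a symbol. Of these genes Ccna2, Anp32b, Copz1, Baz1a, Ankhd1 and Baz2a were chosen after their values were seen. Sf3b1 encodes a core protein of the U2 particle that reads the branch point of introns. Its exon 14 of 15 (chromosome 1, start 55044783) went from 29.5 to 4.53 (-2.96), and exons 9 and 11 went from 1.15 to 5.91 (2.11) and from 0.867 to 5.15 (2.32). The exon between those had -0.53, and the exon after exon 11 had 1.62. Eif4g2 had lower exons at places 4 (29.9 to 6.85, -2.43) and 12 (63.3 to 16.6, -2.24) of 15 and a higher one at place 15.

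Ccna2, the S phase cyclin A2, had 3.91 and 34.2 at exon 3 of 6 (2.09) and 32.8 and 10.7 at exon 5 (-2.66). Anp32b, a histone chaperone, had 19.4 and 8.50 at exon 2 of 6 (-2.64) and 3.71 and 49.3 at exon 5 (2.28). Copz1, a subunit of the COPI vesicle coat, had 5.70 and 2.09 at exon 4 of 7 (-2.30) and 1.13 and 9.73 at exon 6 (2.25). Baz1a, a subunit of ISWI chromatin remodelers, had 1 exon higher (1.06 to 7.99, 2.31) and 2 lower (5.51 to 1.92, -2.12, and 45.6 to 16.6, -2.06). The others were Tcp1, described above, Ankhd1 and Baz2a.

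**Figure D5:**
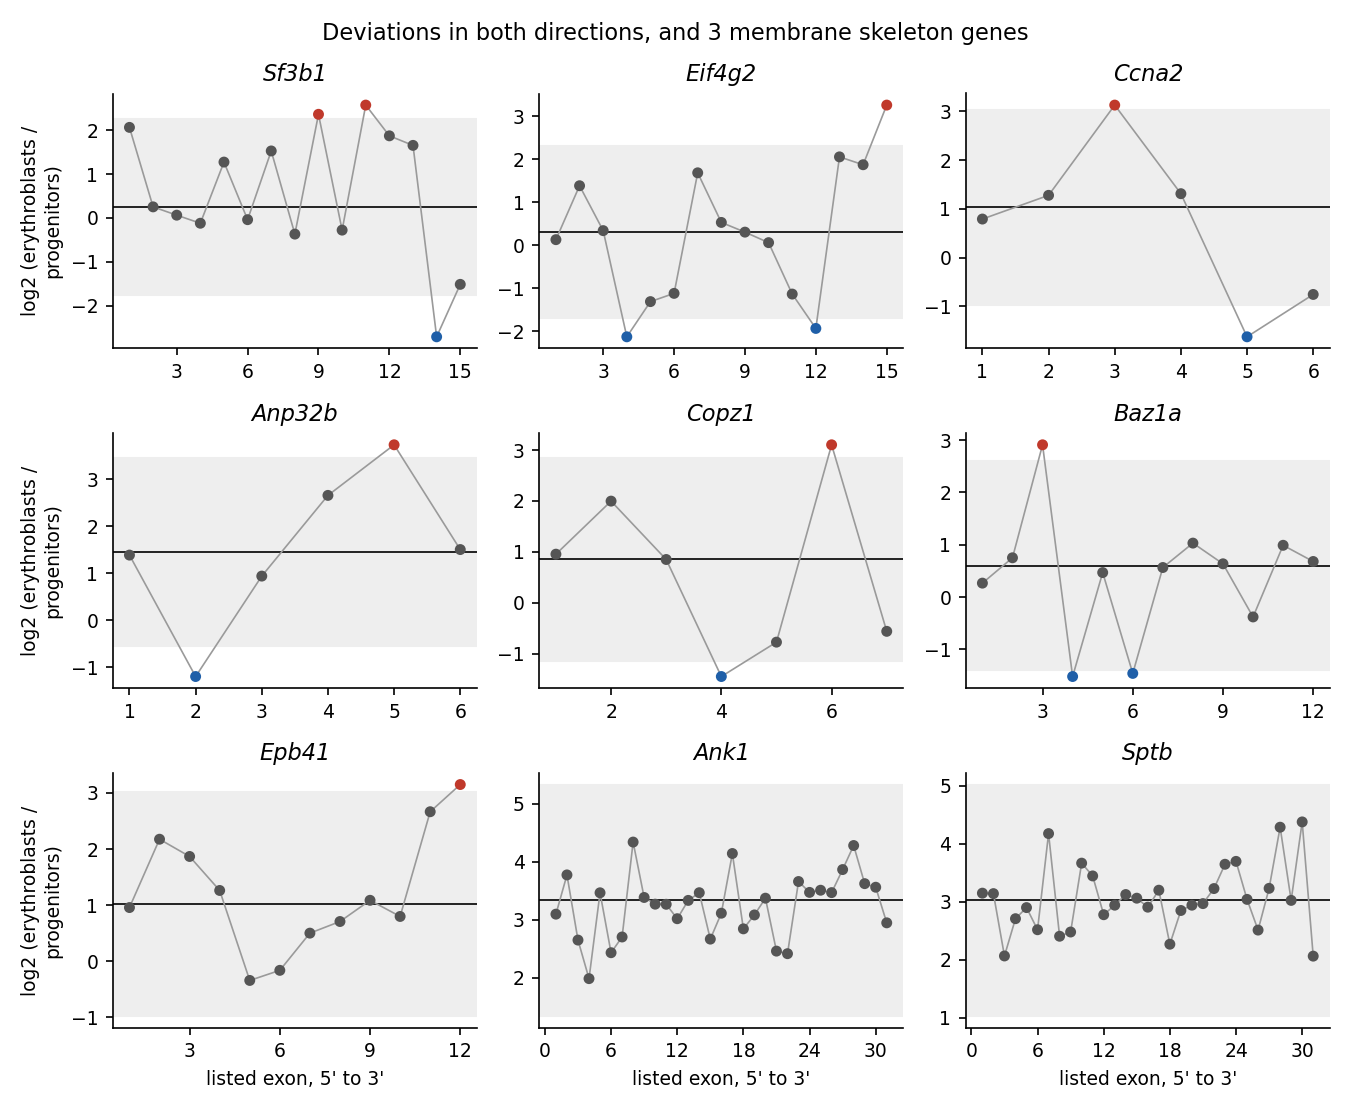
Log2 ratio of erythroblasts to progenitors for each listed exon from 5' to 3' in 6 genes with deviations in both directions and in the membrane skeleton genes Epb41, Ank1 and Sptb. The line is the gene's median and the grey band reaches 2 to either side. Every exon of Ank1 and Sptb lies inside the band, and the last listed exon of Epb41 lies above it.

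The gene lists that follow were chosen with earlier results of these data known. Of 7 eligible membrane and skeleton genes 2 had a deviating exon, Epb41 among them, and 2 of 129 exons deviated (1.55%), beside 13% of all eligible genes and 1.65% of all exons. Epb41, which encodes protein 4.1, a link between spectrin, actin and the membrane, had 4.37 and 38.8 at its last listed exon of 12 (chromosome 4, start 131482425), a deviation of 2.13, which was 1.54 with the line along the gene removed. The exon before it had 2.34 and 14.8 (1.64), and exons 5 and 6 lay lowest at -1.36 and -1.18, the only exons of the gene that were lower in erythroblasts. Its ratio thus dipped in the middle of the gene and was highest at the 3' end. The regulated exon named in the background was not identified among the listed exons. Ank1 and Sptb, with 31 listed exons each, had none, as their deviations ran from -1.35 to 1.01 and from -0.96 to 1.35. All 31 exons were higher in erythroblasts in each of the pair, and the SDs of their log2 ratios were 0.56 and 0.58.

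Of 8 eligible heme and iron genes only Tfrc had a deviating exon. Its exons 3, 4 and 5 of 9 had deviations of -1.47, -1.97 and -2.15, and exon 5 went from 6.39 to 13.1. The median exon of Tfrc was 9.11-fold higher in erythroblasts, so these neighbours were higher too, but by less. None of the 115 exons of 11 eligible erythroid and progenitor regulators deviated, Gata1, Zfpm1, Gfi1b, Epor and Runx1 among them, where 1.65% of all exons and 13% of all eligible genes did. Of 12 eligible chromatin modifier genes only Smarcc1, a subunit of BAF remodelers, had one, from 12.1 to 3.47 at exon 12 of 17 (-2.12).

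Splicing factors were the list with the largest number of deviating exons, 9. Of 31 eligible genes 7 had one (22.6%, against 13% of all eligible genes), and 9 of 310 exons deviated (2.90% against 1.65%), 5 higher and 4 lower. U2af2, which reads the 3' splice site, went from 10.8 to 1.45 at exon 7 of 10 (-2.46). Hnrnpl went from 7.99 to 1.54 at exon 4 of 13 (-2.29). Ddx39b, a helicase of splicing and mRNA export, had 2.86 and 11.6 at exon 2 of 9 (2.16) and 3.74 and 9.22 at the next (1.44). Srrm1, a splicing coactivator, had 14.6 and 44.5 at exon 12 of 13 (2.203), the highest progenitor value of any upward exon. The difference of these shares was not tested. Of 20 eligible genes with stage-dependent splicing or start sites in earlier work 5 had a deviating exon (25%), Epb41, Sf3b1, Ddx39b and Tfrc among them. Mbnl1, a splicing regulator of late erythroblasts, had none, and its first of 6 listed exons stood farthest out at 1.60 (8.28 and 20.8).

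Few eligible exons were ones that other listed transcripts leave out. Of 102 exons missing at their start from another listed transcript of their gene 1 deviated (0.980%, 0.173 to 5.35%). That interval holds the 1.65% of all exons. The exon was number 17 of 18 of Caprin1, an RNA-binding protein of cytoplasmic granules (1.54 to 5.97, 2.197). Of 2882 exons that other listed transcripts spanning them shared 46 deviated (1.60%, 1.20 to 2.12%), and of 9603 exons with no such transcript 161 did (1.68%, 1.44 to 1.95%). Transcripts were compared by exon start alone, since exon ends are not listed.

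The share of deviating exons near an EKLF peak was compared with that of other exons at 1 kb and at 5 kb. Of the 208 exons 14 had an erythroblast peak within 1 kb of their start (6.73%, 4.05 to 10.98%), against 1029 of 12379 other exons (8.31%, 7.84 to 8.81%). For progenitor peaks it was 8 (3.85%, 1.96 to 7.405%) against 566 (4.57%, 4.22 to 4.95%). These intervals overlapped. Among internal exons these shares were 4.02 against 4.83% and 1.72 against 2.34%. Within 5 kb 34 deviating exons had an erythroblast peak (16.3%, 11.9 to 22.0%), against 24.3% of the others (23.5 to 25.02%), and these intervals did not overlap. By direction it was 23 of 108 higher exons (21.3%, 14.6 to 29.9%), which overlapped, and 11 of 100 lower exons (11%, 6.25 to 18.6%). The intervals treat exons as separate although 38 genes had 2 or more deviating exons, and the difference was not tested. Among internal exons the shares within 5 kb were 13.8% (9.45 to 19.7%) against 20.7% (19.9 to 21.5%). For progenitor peaks within 5 kb they were 12.02% (8.28 to 17.1%) against 13.8% (13.2 to 14.4%) over all exons. All 5 deviating first coding exons had an erythroblast peak within 1 kb (56.6 to 100%), in each case over their start. Of the other 198 first coding exons 157 (79.3%, 73.1 to 84.4%) had one within 1 kb. A progenitor peak lay within 1 kb of 4 of the 5 (37.6 to 96.4%), those of Lrrc47, Sfpq, Lmnb1 and Gps2. Nmt1 had its nearest at 10860 bp. Among the other 198 it was 98 (49.5%, 42.6 to 56.4%). For both lists these intervals overlapped. Fold enrichments of the erythroblast peaks, the authors' values, were 11.4, 19.0, 15.9, 13.9 and 12.4 for Lrrc47, Sfpq, Lmnb1, Gps2 and Nmt1. None of the 20 deviating last listed exons had a peak within 1 kb in either list, which allows a share of up to 16.1% by the Wilson interval. Of the other 1196 last listed exons 5.02% had one in the erythroblast list and 2.01% in the progenitor list.

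The number of deviating exons depended on the coverage required. A floor on both columns takes out exons with a low value in 1 stage, so fewer calls follow in part from the rule. With only exons of at least 2 in both columns 71 of 7683 exons deviated (0.924%). With at least 5 there were 12 of 3001 (0.400%). Among all 12587 exons, by geometric mean of both stages, 1.29% deviated under 2 and 2.65% from 2 to 5. From 5 to 10 it was 1.26%, and at 10 or more 0.879%. With 1 added to both columns 54 remained past 2, of which 19 were higher and 35 lower. Centring each gene on the ratio of its summed exons, which weights its best covered exons, gave 167 higher and 53 lower.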

How the data were processed

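RNA sequencing of sorted cells was done in paired reads of 51 bases, per the labels' protocols. The deposited table is named for RPKM, but its values are read as a coverage signal per coding exon, since 99.99% of progenitor and 99.96% of erythroblast values were within 0.02 of a whole multiple of 1 step for exons of all lengths. The steps were 1835 and 2151 per unit. Build mm9 is named in the submitters' processing notes, and no source used here gives the aligner, counter or peak caller, or says whether the erythroblast column pools both libraries. Each printed level is thus a single value from the authors.

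The deposited peak lists (7358 progenitor and 19353 erythroblast peaks, 1 list per stage) hold a fold enrichment, read from its values, and a -log10 p that was not used. A peak was near an exon where it lay within 1 kb of its start.

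Of 6853 RefSeq transcripts 6772 matched a symbol in the table of GRCm38.p6 and 54 took that of a transcript sharing an exon start. Of 5241 genes 27 stayed without a symbol, and 4 items join genes with shared exon starts. Ties between transcripts went to the higher summed coverage.

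No test across replicates was possible, so a fixed size rule was used. The members and lists were chosen with earlier results of these data known. Named were the 12 largest deviations in each direction, the 20 largest runs, up to 8 deviating first and last coding exons, list genes with a deviating exon, and Epb41, Ank1, Sptb and Mbnl1. A gene that this rule names is not reported here. Runs beyond these are named without values. Steps were tested on simulated data. Software was scipy 1.17.1 and numpy 2.4.6 with pandas 2.3.3 on Python 3.11.15.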

Additional observations from a re-analysis of the deposited data

How the results depend on the processing

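No paired analysis was possible because the table has 1 column per stage, and for the same reason no library could be left out. A single scaling factor per column cancels in the deviation. Among the alternatives run, none reversed the direction of any of the 79 named exons. All of them reuse the same columns on exons chosen for the size of their deviation, so a reversal was unlikely from the start. Limits on column sums or on the number of listed exons leave the value of a kept exon unchanged. Centring on the median of the other exons cannot shrink it. The counts that follow include these settings. Of 682 values of named exons under alternatives 131 were under 2 in size, 45 of them with 1 added to both columns, 44 with the straight line along the gene removed and 29 with centring on summed exons, and 20 exons were under 2 in none of the alternatives that gave them a value.

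Against 208 deviating exons (108 higher, 100 lower), 1 added to both columns left 54 (19 and 35), a limit of 1.5 gave 706 (395 and 311), and a limit of 3 gave 11 (4 and 7). Column sums of at least 100 gave 76 (50 and 26) and at least 10 listed exons gave 135 (71 and 64). Exons of at least 2 gave 71 (39 and 32) and of at least 5 gave 12 (5 and 7). Centring on summed exons gave 167 higher and 53 lower, and removing the straight line left 65 lower. Fewer exons entered with column sums of at least 100 (3774), at least 10 listed exons (7979), and exons of at least 2 (7683) or 5 (3001), whereas all 12587 entered under the others. The cause was not tested further.

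The share of deviating exons at the ends of genes, 16.3%, was 22.2% with 1 added, 11.9% with at least 10 exons, 29.6% and 50% with exons of at least 2 and 5, and 10.6% with the line removed. Where fewer exons entered, the share of end exons among all exons changes too and was not computed. The line was fitted with end exons included, so the lower share with the line removed follows in part from the fit. The share in runs, 23.1%, was 30.03% at a limit of 1.5, 0% at 3, 8.45% and 0% with exons of at least 2 and 5, 11.97% with the line removed, and 44.2% where a neighbour past 1.5 counted. List genes with a deviating exon, 11, were 3 with 1 added, 31 and 0 at limits of 1.5 and 3, 7 with column sums of at least 100, 7 with at least 10 exons, and 2 with exons of at least 5.

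The share near an erythroblast peak, 6.73%, was 11.3% and 16.7% with exons of at least 2 and 5 and 16.3% within 5 kb, where 24.3% of other exons had one. That near a progenitor peak, 3.85%, was 9.09% at a limit of 3, 0.741% with at least 10 exons, 8.45% and 8.33% with exons of at least 2 and 5, and 12.02% within 5 kb. Where fewer exons entered, the share of other exons near a peak was not computed. Only 12 exons deviated with exons of at least 5. The change along genes stayed negative under every alternative run for it.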
